A study of Mus musculus with 6 samples.

Results

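Bone mineral is a calcium phosphate, and whether it forms at a site depends on the supply of phosphate and on the removal of pyrophosphate, which blocks crystal growth. The genes described here encode proteins on both sides of that balance. They comprise the phosphatases *Alpl* and *Phospho1*, the pyrophosphate suppliers *Enpp1* and *Ank*, the sodium-phosphate cotransporters *Slc20a1* and *Slc20a2*, the endopeptidase gene *Phex* with the phosphate hormone *Fgf23*, and the sphingomyelinase gene *Smpd3*. Members were taken by gene name, and 7 of the 9 carried a name among the 48733 named genes of the deposited tables. *Phospho1* and *Smpd3* did not.

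RNA-seq was performed on femoral bone and on marrow-derived osteoblasts of CC016/GeniUnc mice, an inbred Collaborative Cross strain, with 3 libraries labelled bone and 3 labelled osteoblasts. The bone had its marrow spun out before RNA isolation, and no agent is named for it. The osteoblasts were grown from bone marrow stromal cells and kept for 8 days in medium to which dexamethasone (10 nM), ascorbic acid (50 µg/ml) and beta-glycerophosphate (10 mM) had been added. Beta-glycerophosphate is an organic phosphate that the product of *Alpl* can hydrolyse, and the other agents promote osteoblast formation. Age is not given in the sources used here, and the labels name no genetic modification. The osteoblasts were primary cultures of adherent marrow cells, which can include cells other than osteoblasts. The methods of the study give 3 mice, the labels do not tie a library to a mouse, and each library is named here by its deposited label.

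Libraries of one label stood apart from each other. *Hbb-bt*, a beta-globin gene of red cells, measured 34838 FPKM (fragments per kilobase of transcript, scaled to the aligned fragments of the library) in bone replicate 3, and 34268 and 48650 FPKM in replicates 2 and 3 of the osteoblasts. It was at 7.05 and 3.58 FPKM in the other bone libraries and at 3.43 FPKM in osteoblasts replicate 1. The limit of 1000 FPKM used below thus divided the libraries across both labels. Of the marker lists, 3 of 3 erythroid, 7 of 7 neutrophil, 3 of 3 skeletal muscle, 4 of 4 endothelial and 3 of 3 chondrocyte genes that were tested had their 3 highest values in the libraries above the limit. Their sums there were 35064 to 49635 FPKM (erythroid), 14246 to 17225 (neutrophil), 221 to 943 (muscle), 31.8 to 43.9 (endothelial) and 140 to 275 (chondrocyte). In the other 3 libraries the same sums were 3.48 to 7.26, 0.43 to 5.51, 0.032 to 1.09, 0.27 to 4.93 and 3.51 to 13.7 FPKM. Osteoblast markers were present in every library, with summed levels of 5516 to 6531 FPKM above the limit and 5202 to 8370 FPKM below it, most of it from *Col1a1* and *Col1a2*. Within this list *Ibsp* was at 43.1 to 91.3 FPKM above the limit and 986 to 1278 FPKM below it, and *Bglap2* at 1641 to 1959 and 264 to 513 FPKM. The osteocyte markers summed to 43.7 to 49.8 FPKM above the limit and 54.6 to 133 FPKM below it, although *Sost* was at most 0.20 FPKM below it. Stromal markers summed to 44.3 to 49.7 FPKM above the limit and 196 to 373 FPKM below it. Most of the sum below it came from *Postn*, with 141 to 342 FPKM there and 16.7 to 21.0 FPKM above the limit. *Pdgfrb* was also lowest above the limit, *Lepr* and *Thy1* overlapped, and *Cxcl12* and *Pdgfra* had no feature of their name. Macrophage and osteoclast markers summed to 558 to 614 and 437 to 1002 FPKM, and adipocyte markers to 120 to 166 and 46.6 to 249 FPKM. Of the macrophage and osteoclast markers, *Csf1r*, *Adgre1* and *Cd68* had their 3 lowest values above the limit and *Acp5*, an osteoclast phosphatase gene, its 3 highest. The blood and muscle markers thus go against the label of osteoblasts replicates 2 and 3, and *Sost* was nearly absent from bone replicates 1 and 2. Of the other osteocyte markers, *Dmp1* went the other way from *Sost*. It had 104 and 50.0 FPKM in these bone libraries and 22.5 to 24.2 FPKM above the limit. *Dmp1* was highest in osteoblasts replicate 1, with 127 FPKM. Both genes thus divided the libraries by the limit and not by the label. *Irx5* had 6.73 and 2.69 FPKM in these bone libraries, 4.57 FPKM in osteoblasts replicate 1 and 2.13 to 2.77 FPKM above the limit. *Pdpn* was lowest in bone replicate 1, and its values above and below the limit overlapped. No library was moved. Differences between the labels are given over all 6 libraries and within the 3 libraries on each side of the limit. Without these 4 libraries 1 library a label would be left, with no test. The depth implied by the files was 2.03 to 3.39 Gb of aligned bases per library, and features without a name took 71.5% and 65.0% of the FPKM in bone replicate 2 and osteoblasts replicate 1 against 27.4 to 30.7% elsewhere. The part of blood, muscle, depth and unnamed features in the values below was not tested, except where a scaling or a subset of libraries is given.

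The sequences before the starts of 4 members are shown because these members had their 3 lowest values (*Alpl*, *Ank* and *Enpp1*) or their 3 highest (*Slc20a1*) in the libraries with much *Hbb-bt*. Each is the 250 bases before an annotated RefSeq start in GRCm38.p6, read 5′ to 3′ on the strand of the gene. The promoter table held entries for 7 of the 9 members. Capitals mark TGTGGT, the core bound by RUNX factors such as the osteoblast regulator RUNX2, and GGGCGG, the GC box bound by Sp factors, on either strand.
Alpl (chr4:137796385-137796634, minus strand): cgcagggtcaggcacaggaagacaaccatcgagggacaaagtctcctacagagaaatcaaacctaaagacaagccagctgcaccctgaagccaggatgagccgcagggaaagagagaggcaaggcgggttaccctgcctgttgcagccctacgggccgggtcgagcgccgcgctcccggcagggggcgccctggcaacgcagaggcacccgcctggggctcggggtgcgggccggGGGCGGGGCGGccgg
Ank (chr15:27466427-27466676, plus strand): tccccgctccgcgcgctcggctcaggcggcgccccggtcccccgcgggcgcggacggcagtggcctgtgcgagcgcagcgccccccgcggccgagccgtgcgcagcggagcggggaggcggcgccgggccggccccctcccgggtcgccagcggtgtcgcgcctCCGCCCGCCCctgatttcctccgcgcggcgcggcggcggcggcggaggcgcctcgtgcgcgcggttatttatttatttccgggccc
Enpp1 (chr10:24712160-24712409, minus strand): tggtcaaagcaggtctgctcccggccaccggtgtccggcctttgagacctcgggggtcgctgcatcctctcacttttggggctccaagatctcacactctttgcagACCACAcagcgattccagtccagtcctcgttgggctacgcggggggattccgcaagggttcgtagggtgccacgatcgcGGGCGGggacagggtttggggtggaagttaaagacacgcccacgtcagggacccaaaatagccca
Slc20a1 (chr2:129198523-129198772, plus strand): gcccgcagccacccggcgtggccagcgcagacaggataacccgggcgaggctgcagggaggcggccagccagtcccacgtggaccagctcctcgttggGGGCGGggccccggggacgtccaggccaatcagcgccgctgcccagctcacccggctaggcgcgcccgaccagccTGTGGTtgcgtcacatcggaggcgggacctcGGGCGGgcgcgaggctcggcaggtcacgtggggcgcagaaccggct
The RUNX core was found in the windows of *Enpp1*, 144 bases before the start on the opposite strand, and of *Slc20a1*, 77 bases before it. In the windows of *Alpl* and *Ank* these letters were absent. At least 1 GC box was found in each of the 4, with 2 overlapping matches each in *Alpl* and *Ank*, 2 separate matches in *Slc20a1* and 1 in *Enpp1*. Of all 32851 promoters of the table, 14.0% held the RUNX core and 32.7% the GC box in the same window. Among the other members with an entry, *Phospho1* had 3 GC box matches, *Phex* and *Fgf23* had 0, and none had the RUNX core. A link between these motifs and the order of the libraries was not tested. The other annotated start of *Alpl* had neither motif in its window, and that of *Slc20a1* had 1 GC box on the opposite strand. RNA levels per gene do not show which start was used.

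*Alpl* encodes tissue-nonspecific alkaline phosphatase, the enzyme on the surface of osteoblasts and matrix vesicles that hydrolyses pyrophosphate. In the deposited tables it lies on the minus strand of Chr. 4 (chr4:137741733-137796384, GRCm38). It measured 205, 95.4 and 94.1 FPKM for replicates 1 to 3 of the label bone and 153, 67.3 and 66.0 FPKM for those of the label osteoblasts. Bone replicate 1 and osteoblasts replicate 1 were high, bone replicates 2 and 3 lay close together, and the labels overlapped. The means were 131 ± 63 FPKM (SD, n = 3) under the label bone and 95.3 ± 49.6 FPKM (SD, n = 3) under the label osteoblasts. *Alpl* had the highest level of the members in each of the 6 libraries, above 94.5 to 98.5% of the genes of a library with an FPKM of at least 1.

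The products of *Enpp1* and *Ank* supply what that of *Alpl* removes. *Enpp1* encodes the ectonucleotidase that releases pyrophosphate from extracellular nucleotides, and *Ank* a membrane protein needed for the export of pyrophosphate or its source ATP. *Enpp1* (chr10:24637914-24712159, minus strand) measured 21.4, 6.85 and 3.55 FPKM for replicates 1 to 3 of the label bone and 6.86, 5.66 and 4.26 FPKM for those of the label osteoblasts. Bone replicate 1 was 6.03 times as high as bone replicate 3, the lowest library, which carries the same label. *Ank* (chr15:27466677-27594909, plus strand) measured 61.5, 35.2 and 23.1 FPKM in the libraries labelled bone and 45.6, 25.3 and 23.4 FPKM in those labelled osteoblasts, in the order of replicates 1, 2 and 3. Its values were high in bone replicates 1 and 2 and in osteoblasts replicate 1, and the other 3 libraries lay within 23.1 to 25.3 FPKM. The means of *Enpp1* were 10.6 ± 9.5 FPKM (SD, n = 3) under the label bone and 5.60 ± 1.3 FPKM (SD, n = 3) under the label osteoblasts, and those of *Ank* were 39.9 ± 19.7 and 31.5 ± 12.3 FPKM. The labels overlapped for both genes. Unnamed features on the opposite strand overlap *Ank*, the highest of them with 7.81 to 15.9 FPKM, and the library kit does not mark strand.

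The cotransporter genes had other orders of libraries. *Slc20a1* and *Slc20a2* encode the phosphate importers PiT-1 and PiT-2. *Slc20a1* (chr2:129198764-129211616, plus strand) measured 22.3, 9.81 and 28.0 FPKM for replicates 1 to 3 of the label bone and 14.9, 38.2 and 34.1 FPKM for those of the label osteoblasts. It was highest in osteoblasts replicates 2 and 3 and bone replicate 3 and lowest in bone replicate 2. *Slc20a2* (chr8:22476788-22569612, plus strand) measured 14.4, 5.56 and 12.1 FPKM in the libraries labelled bone and 10.6, 9.37 and 10.9 FPKM in those labelled osteoblasts. Here both the highest and the lowest value were under the label bone, and the 3 libraries labelled osteoblasts lay between them. The means were 20.1 ± 9.3 and 29.1 ± 12.4 FPKM (SD, n = 3 each) for *Slc20a1* under the labels bone and osteoblasts, and 10.7 ± 4.6 and 10.3 ± 0.8 FPKM for *Slc20a2*.

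*Phex* encodes an endopeptidase of osteoblasts and osteocytes whose loss raises FGF23, the hormone of bone that makes the kidney excrete phosphate. *Phex* (chrX:157162075-157415656, minus strand) measured 8.19, 5.14 and 4.61 FPKM for replicates 1 to 3 of the label bone and 5.77, 6.22 and 6.71 FPKM for those of the label osteoblasts. It had the narrowest range of the members with a mean of at least 1 FPKM, with the highest library 1.78 times the lowest, and the labels overlapped. Its means were 5.98 ± 1.93 FPKM (SD, n = 3) under the label bone and 6.23 ± 0.47 FPKM (SD, n = 3) under the label osteoblasts.

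*Fgf23* (chr6:127072902-127081408, plus strand) was near the limit of detection. Bone replicate 1 had 0.10 FPKM, and replicates 2 and 3 of the osteoblasts had 0.29 and 0.065 FPKM. It was listed at 0 in the other 3 libraries. With a transcript of 1814 bases these values correspond to 3.01, 12.0 and 2.01 read pairs. A level of 3 pairs on this transcript is 0.073 to 0.12 FPKM at these depths, so only osteoblasts replicate 2 stood clearly above it. The floor covers counting error only. *Fgf23* lies within an unnamed feature of the opposite strand (5.93 to 54.7 FPKM), and with an unstranded kit reads of both cannot be told apart.

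*Phospho1*, which encodes the phosphatase that frees phosphate from phosphocholine inside matrix vesicles, lies in RefSeq on Chr. 11 from 95824500 to 95832140. In the deposited tables a merged locus named *Zfp652* covers that whole span, so its FPKM is not that of *Phospho1*, and *Phospho1* was not analysed here. *Smpd3* encodes neutral sphingomyelinase 2, a membrane enzyme whose loss in mice impairs mineralization. RefSeq lists it on Chr. 8 from 106252548 to 106337965, and a feature without a name begins at the same base and ends 23 bases beyond it, on the minus strand. That feature measured 35.7, 14.0 and 26.0 FPKM for replicates 1 to 3 of the label bone and 32.1, 18.4 and 18.3 FPKM for those of the label osteoblasts. The labels overlapped (25.2 ± 10.9 and 22.9 ± 8.0 FPKM, SD, n = 3 each). The feature was not counted as *Smpd3*, since it carries no name, and it entered no test.

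**Figure D1:**
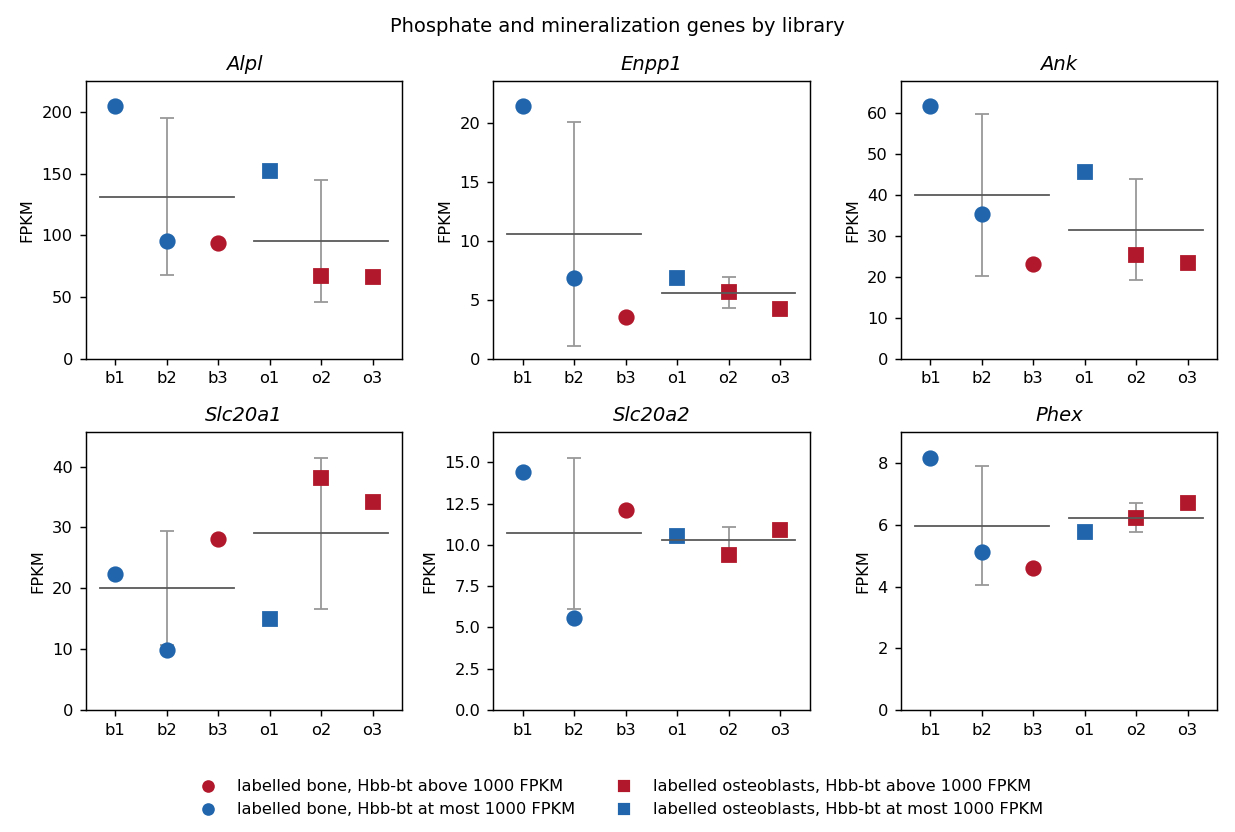
FPKM of the 6 members with a mean of at least 1 FPKM in each library (b1 to b3 labelled bone, o1 to o3 labelled osteoblasts). Points are libraries, coloured by *Hbb-bt*, and grey lines and bars are the mean and SD of each label. The *Ank* points with much *Hbb-bt* lie within 23.1 to 25.3 FPKM, below the other 3, while those of *Slc20a1* lie within 28.0 to 38.2 FPKM, above the other 3.

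FPKM is per length and can be compared between genes. By the mean over the 6 libraries the order was *Alpl* (113 FPKM), *Ank* (35.7), *Slc20a1* (24.6), *Slc20a2* (10.5), *Enpp1* (8.10), *Phex* (6.11) and *Fgf23* (0.077). Within a library, *Alpl* was above *Ank*, *Slc20a1* above *Slc20a2* and *Phex* above *Fgf23* in 6 of 6 libraries. *Ank* was above *Slc20a1* in 3 of 6, *Slc20a2* above *Enpp1* in 4 of 6 and *Enpp1* above *Phex* in 3 of 6, so the order of these neighbours varied between libraries.

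Whether the members differed between bone and osteoblasts was tested with limma on log2(FPKM + 1). Of the 9 members, 6 passed the filter of a mean FPKM of at least 1, and 0 of them were called at an adjusted p under 0.05, where the background was 0% of the 12112 genes tested. At an unadjusted p under 0.05 there were 0 members, against 17 genes (0.14%) of all those tested. On the log2 scale the difference of osteoblasts minus bone was -0.48 (SE 0.60) for *Alpl*, -0.51 (SE 0.60) for *Enpp1* and -0.29 (SE 0.54) for *Ank*. It was 0.53 (SE 0.58) for *Slc20a1*, 0.034 (SE 0.47) for *Slc20a2* and 0.084 (SE 0.40) for *Phex*, with a limma adjusted p of 0.999 for each of the 6. For each of the 6 the standard error was larger than the difference, and a p over the threshold does not show that a difference is absent. The median over the members tested was -0.13, and that over all genes tested was 0.12. In bulk RNA, fewer cells of a type and less RNA per cell cannot be told apart. The values of no member separated the labels, and those of 111 genes (0.916%) did.

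**Figure D2:**
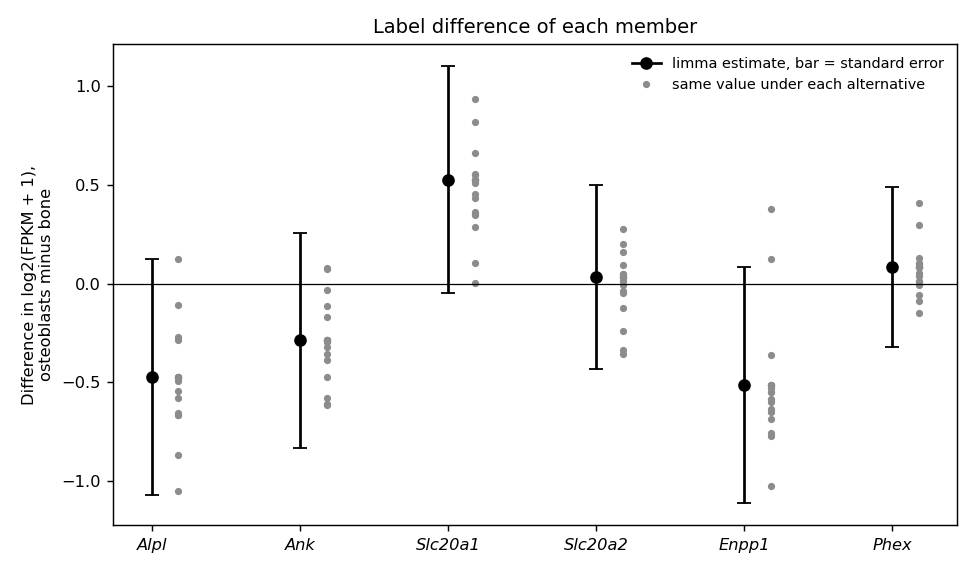
Difference in log2(FPKM + 1), osteoblasts minus bone, for each member tested. Black points and bars are the limma estimate and its standard error, and grey points are the same difference under other settings or with libraries left out. The estimates run from -0.51 for *Enpp1* to 0.53 for *Slc20a1*, and the grey points of every member but *Slc20a1* lie on both sides of 0.

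Without the 3 libraries with much *Hbb-bt*, bone replicates 1 and 2 were compared with osteoblasts replicate 1, a lone library that is assumed to vary like the others. The difference was then 0.12 for *Alpl*, -0.75 for *Enpp1*, -0.030 for *Ank*, 0.0054 for *Slc20a1*, 0.20 for *Slc20a2* and -0.15 for *Phex*. Among the 3 libraries with much *Hbb-bt*, bone replicate 3 was the lone library, and the differences were -0.49, 0.38, 0.077, 0.35, -0.24 and 0.41 in the same order of genes. In both subsets 0 members were called by limma, where 0.0661% of all genes were called in the first and 0.00826% in the second, so that 0 of 6 is what the background gives. *Alpl*, *Enpp1*, *Ank*, *Slc20a2* and *Phex* thus had opposite signs in the subsets, and *Slc20a1* had a difference near 0 in the first. Leaving out bone replicate 1 alone turned the difference of *Enpp1* to 0.12 and that of *Ank* to 0.075.

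Per library, *Alpl*, *Enpp1* and *Ank* had their 3 lowest FPKM in the 3 libraries with *Hbb-bt* above 1000 FPKM, and *Slc20a1* had its 3 highest there. Of all genes tested, 16.9% had their 3 lowest and 38.4% their 3 highest values in these libraries. For *Alpl* the gap was small, with at most 94.1 FPKM in these libraries and at least 95.4 FPKM in the others, and in TPM, the same values rescaled within a library, the 2 sets overlapped. In TPM 2 of the 6 members, *Enpp1* and *Ank*, had their 3 lowest values there (15.7% of all genes) and 0 their 3 highest (25.9%). For *Enpp1* the values were 3.55 to 5.66 FPKM against 6.85 to 21.4 FPKM, and for *Ank* 23.1 to 25.3 FPKM against 35.2 to 61.5 FPKM. The separation of *Enpp1* and *Ank* also held in TPM and with FPKM scaled to the 75th percentile of the genes tested or to the sum over named genes. That of *Slc20a1* held with the 75th percentile but not in TPM or with the sum over named genes. Scaled to the sum over named genes, 5 of the 6 members had their 3 lowest values in these libraries, all but *Slc20a1*, where 48.6% of all genes did, and 0 had their 3 highest there, where 21.4% of all genes did. With the 75th percentile it was 4 of the 6, namely *Alpl*, *Enpp1*, *Ank* and *Phex*, where 32.1% of all genes did, and *Slc20a1* was 1 of the 37.1% with their 3 highest values there. These are descriptions of libraries chosen by a measured value, and no test was run between them.

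The members were also ranked within each library among the genes with at least 1 FPKM there, a set that changes with the library. *Ank* was above 93.2 to 93.6% of the genes with at least 1 FPKM in each of the 3 libraries with little *Hbb-bt*, and above 83.8 to 84.6% in the other 3 libraries. *Alpl* was above 97.8 to 98.5% and above 94.5 to 96.1% of them in the same sets. *Enpp1* ranked from 54.6 to 78.4% and from 35.5 to 46.5%. The order was the opposite for *Slc20a1*, at 72.2 to 79.4% and 86.6 to 89.8%. *Slc20a2* (53.5 to 70.5%) and *Phex* (42.8 to 51.9%) overlapped between the sets. Ranked among the same 12112 genes in every library, which no scaling of a library alters, *Alpl*, *Enpp1* and *Ank* again had their 3 lowest ranks in the libraries with much *Hbb-bt* and *Slc20a1* its 3 highest. *Slc20a2* overlapped there too, and *Phex* did not, at 40.7 to 48.5% with much *Hbb-bt* and 53.0 to 59.9% with little. The share of all 12112 genes whose ranks separated these libraries was not computed, so the ranks are a description only. With FPKM scaled to the 75th percentile, 32.1% of all genes had their 3 lowest values there and 37.1% their 3 highest.

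**Figure D3:**
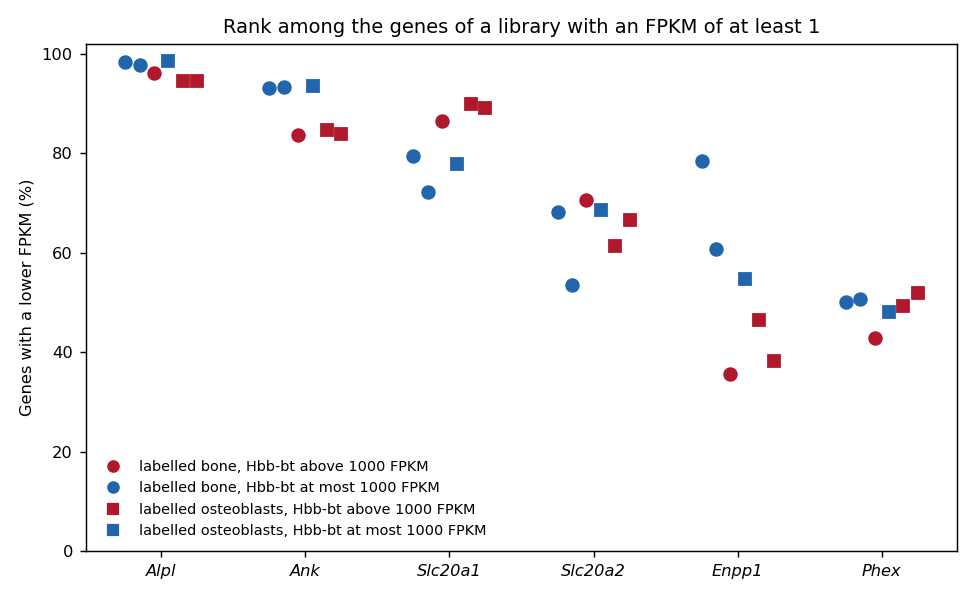
Share of the genes with at least 1 FPKM in a library that had a lower FPKM than the member, in percent, for 6 members in each library. Circles are libraries labelled bone, squares those labelled osteoblasts, and colours give *Hbb-bt*. The *Ank* points form groups at 93.2 to 93.6% and at 83.8 to 84.6%, each with both labels.

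Ratios between members within a library are also free of its scaling. The ratio of *Alpl* to *Enpp1*, pyrophosphate hydrolysis against pyrophosphate supply, was 9.56, 13.9 and 26.5 for replicates 1 to 3 of the label bone and 22.2, 11.9 and 15.5 for those of the label osteoblasts. Both labels held low and high ratios. On the log2 scale the means were 3.93 ± 0.74 (SD, n = 3) and 4.00 ± 0.45 (SD, n = 3), a difference of 0.071 (exact permutation test, two-sided, p = 0.9). The ratio of *Slc20a1* to *Slc20a2* was 1.55, 1.76 and 2.31 in the libraries labelled bone and 1.42, 4.08 and 3.13 in those labelled osteoblasts. *Slc20a1* was the higher of the 2 cotransporter genes in 6 of 6 libraries. The log2 means were 0.89 ± 0.29 (SD, n = 3) and 1.39 ± 0.79 (SD, n = 3), a difference of 0.51 (exact permutation test, two-sided, p = 0.4). With 3 libraries against 3 the smallest p is 0.1, and the sign of the first difference turned without bone replicate 1 (-0.26) and without osteoblasts replicate 1 (-0.17). These 2 ratios were the ones tested, and with Benjamini-Hochberg adjustment over them neither passes.

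The other pairs of members were examined as a description, after the values had been seen. The ratio of *Ank* to *Slc20a1* was 2.76 and 3.58 in bone replicates 1 and 2, and 3.05 in osteoblasts replicate 1. It was 0.82 in bone replicate 3, and 0.66 and 0.69 in replicates 2 and 3 of the osteoblasts. The gene for pyrophosphate export was thus the higher in the first 3 libraries, and that for phosphate import in the other 3. The ratio of *Alpl* to *Slc20a1* was 9.17, 9.73 and 10.2 in the first 3 libraries, and 3.36, 1.76 and 1.93 in the other 3. In contrast, the ratio of *Alpl* to *Ank* kept within 2.66 to 4.08 over all 6 libraries, the narrowest range of the 15 pairs of the 6 members. Of the 15 pairs, 10 had ratios that did not overlap between libraries above and below 1000 FPKM of *Hbb-bt*, and 0 had ratios that did not overlap between the labels. Among all pairs of the 11464 genes with a value above 0 in every library the shares were 68.1% and 3.07%, so the counts of the members were close to the background. Pairs share genes and libraries and are not independent.

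**Figure D4:**
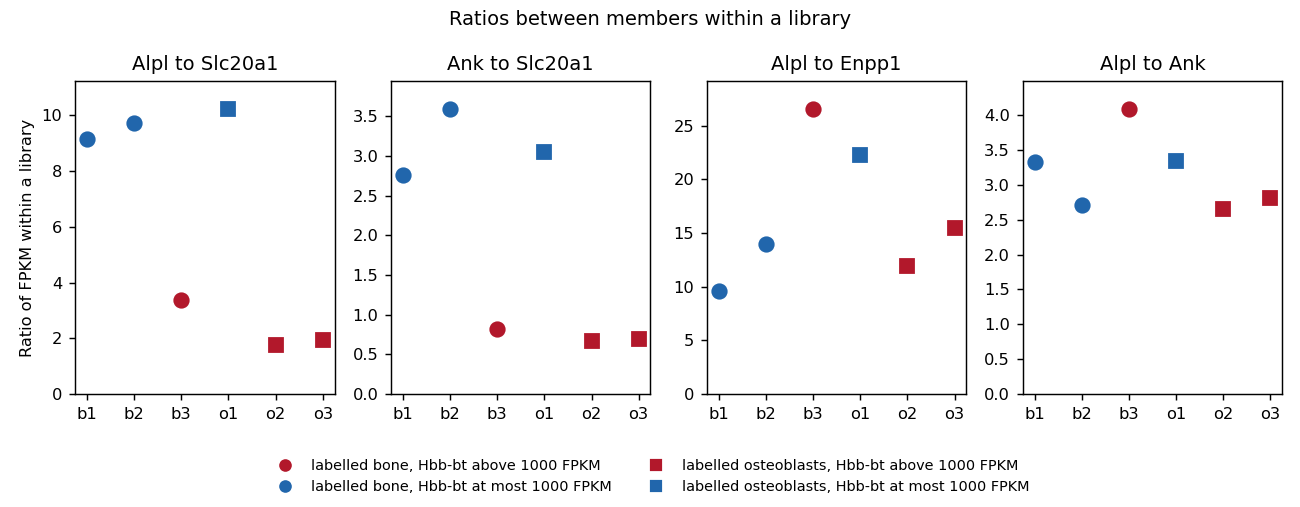
Ratio of FPKM of 4 pairs of members within each library (b1 to b3 labelled bone, o1 to o3 labelled osteoblasts), 1 point per library, coloured by *Hbb-bt*. *Ank* to *Slc20a1* is at least 2.76 in 3 libraries and at most 0.82 in the other 3, while *Alpl* to *Ank* stays within 2.66 to 4.08.

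Among the genes tested, those with the pattern most like a member were found by the root mean square difference of log2(FPKM + 1) over the 6 libraries, centred on each gene's mean. For *Alpl* they were *Hspg2* (0.055), which encodes the basement membrane proteoglycan perlecan, and *Aldh7a1* (0.063), an aldehyde dehydrogenase gene. For *Ank* they were *Fbxo28* (0.039) and *9530068E07Rik* (0.049), and for *Enpp1* they were *Ehbp1* (0.10) and *Frk* (0.13), the latter a kinase gene. For *Slc20a1* they were *Gm8172* (0.051) and *Rps6-ps4* (0.052), a pseudogene named for a ribosomal protein whose reads can be shared with the parent gene. *Slc20a2* lay nearest to *Pias3* (0.052) and *Tnpo2* (0.059), and *Phex* to *Nsun4* (0.032) and *Klhl20* (0.045). The likeness rests on 6 libraries that share their scaling. The 1 FPKM added before the log narrows the spread of low genes. *Ehbp1* ranged from 0.71 to 8.09 FPKM and *Frk* from 0.22 to 4.69 FPKM, against 3.55 to 21.4 FPKM for *Enpp1*.

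Beyond the members, 48 genes that act on phosphate, pyrophosphate, matrix vesicles or mineral inhibition were listed, of which 42 carried a name and 31 were tested. None was called higher and none lower in osteoblasts by limma (0 at an adjusted p and 0 at an unadjusted p under 0.05), and their median difference was -0.21 on the log2 scale against 0.12 for all genes tested. *Fam20c*, *Mepe*, *Pth1r*, *Chkb*, *Spp1* and *Vkorc1* had no feature of their name and were not analysed here. *Slc34a2*, *Slc34a3*, *Slc17a1*, *Slc17a3*, the FGF23 co-receptor gene *Kl* and the vitamin D hydroxylase gene *Cyp24a1* were listed at 0 in all 6 libraries.

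Of the other phosphate transporter genes, 2 of 7 were tested and 0 were called. *Xpr1*, which encodes the phosphate exporter, ranged from 5.15 to 10.2 FPKM, and *Slc25a3*, the mitochondrial phosphate carrier gene, from 40.1 to 80.1 FPKM. *Slc34a1*, a kidney type cotransporter gene, was at most 0.092 FPKM. For the FGF23 axis and vitamin D, 6 of 12 were tested and 0 were called. *Dmp1*, a matrix protein gene of osteocytes that is also among the osteocyte markers, measured 104, 50.0 and 24.2 FPKM for replicates 1 to 3 of the label bone and 127, 22.5 and 22.9 FPKM for those of the label osteoblasts. The receptor gene *Fgfr1* measured 65.1, 43.8 and 35.2 FPKM, and 71.7, 26.1 and 26.4 FPKM in the same order. Both were lowest in the 3 libraries with much *Hbb-bt*, whereas *Furin*, a protease gene, ranged from 17.5 to 32.0 FPKM with no such order. *Furin* had no such order in TPM either, but had its 3 lowest values there with the 75th percentile or the sum over named genes.

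For pyrophosphate and nucleotide handling, 8 of 10 were tested and 0 were called, with a median difference of -0.20. *Slc29a1*, an adenosine transporter gene, measured 223, 112 and 71.4 FPKM for replicates 1 to 3 of the label bone and 139, 54.4 and 61.7 FPKM for those of the label osteoblasts. The pyrophosphatase gene *Ppa1* (16.1 to 32.3 FPKM) had its 3 lowest values in the libraries with much *Hbb-bt*. The adenosine kinase gene *Adk* (8.99 to 19.2 FPKM) did so only with the sum over named genes. For matrix vesicles, phospholipid and choline, 10 of 11 were tested and 0 were called, with a median of -0.17. The annexin genes were the highest of this group, *Anxa1* with 75.5 to 264 FPKM, *Anxa2* with 98.1 to 254 FPKM and *Anxa5* with 43.6 to 216 FPKM. In FPKM and TPM, *Anxa5* alone of these 3 had its 3 lowest values in the libraries with much *Hbb-bt*. With the 75th percentile *Anxa2* did too, and with the sum over named genes all 3 did.

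The list drawn up for extracellular inhibitors of mineral and their maturation had the lowest median of the 5 lists, -0.76, with 5 of 8 tested and 0 called. Not tested were *Spp1* and *Vkorc1*, which had no feature of their name, and *Ahsg*, at most 0.92 FPKM. The genes tested include some of other functions, given below, so the median is not that of mineral inhibitors alone. *Mgp*, the matrix Gla protein that keeps soft tissue free of mineral, measured 765, 307 and 106 FPKM for replicates 1 to 3 of the label bone and 281, 107 and 108 FPKM for those of the label osteoblasts. Its difference was -0.98 (SE 0.81, limma adjusted p = 0.999). *Gas6*, another vitamin K-dependent protein gene, measured 532, 242 and 64.0 FPKM, and 359, 64.9 and 72.6 FPKM in the same order. *Ggcx* encodes the carboxylase that such proteins need, and *Tnfrsf11b* encodes osteoprotegerin, a decoy receptor that restrains osteoclasts. *Fbn1*, which encodes the microfibril protein fibrillin-1, measured 73.7, 31.5 and 9.36 FPKM, and 39.8, 7.10 and 8.29 FPKM. Each of the 5 genes, *Mgp*, *Gas6*, *Fbn1*, *Ggcx* and *Tnfrsf11b*, had its 3 lowest values in the 3 libraries with much *Hbb-bt*, in FPKM, in TPM and with either scaling. Over the 31 listed genes the count was 12 (38.7%) in FPKM, 11 (35.5%) in TPM, 19 (61.3%) with the 75th percentile and 28 (90.3%) with the sum over named genes. The corresponding shares of all genes tested were 16.9%, 15.7%, 32.1% and 48.6%. *Slc44a2*, a choline transporter gene, was the 1 listed gene (3.23%) with its 3 highest FPKM in these libraries, where 38.4% of all genes tested did. It was also the 1 with the 75th percentile (37.1% of all genes). In TPM and with the sum over named genes 0 of the 31 did, where 25.9% and 21.4% of all genes did.

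**Figure D5:**
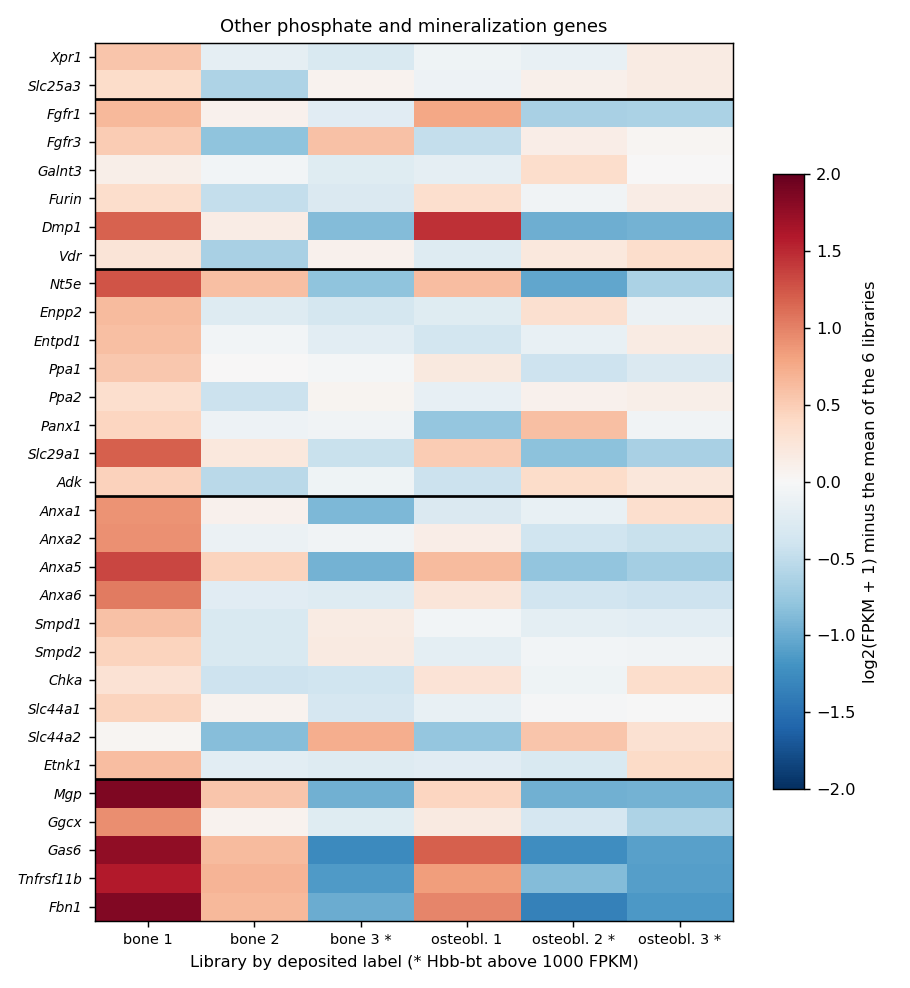
log2(FPKM + 1) of the 31 listed genes that were tested, minus each gene's mean over the 6 libraries, with 1 column per library and lines between the 5 lists. The bottom block, *Mgp* to *Fbn1*, is below its mean (blue) in the 3 libraries marked with an asterisk and above it (red) in the other 3.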

How the data were processed

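RNA-seq was analysed from 3 libraries labelled bone and 3 labelled osteoblasts. Total RNA was made into libraries with a kit that does not mark strand, and reads (paired ends of 75 bp) were aligned by the authors with HISAT2 2.0.5, on GRCm38, and assembled and quantified with StringTie 1.3.3. The authors deposited FPKM, scaled to all aligned fragments, TPM, the FPKM rescaled within a library, and coverage, the mean signal per base of a feature, with no read counts. Features of one name were summed.

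Depth is the mode of coverage over FPKM across features. The filter was an average of 1 FPKM or more across libraries, and label differences were fitted on log2(FPKM + 1) with limma 3.58.1 in R 4.3.3 (lmFit, eBayes with a trend) and Benjamini-Hochberg adjustment at 0.05. Fold changes on this scale understate changes of low genes. The p-values measure the spread between the deposited libraries. Ratios were compared with exact permutation tests. Promoter sequences and gene spans are from RefSeq on GRCm38.p6, and the *Fgf23* transcript length is from GENCODE vM1. Alternatives changed the pseudocount, filter, unit, scaling, variance trend, block and libraries.

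The members, lists and rules were chosen with earlier results of these data known. Named genes are the members, the 3 highest genes of each of 5 pathway lists, the 2 nearest genes of each member, and *Hbb-bt*. Marker genes that move with a result, or share a list with such a gene, are also named. The other genes of the inhibitor list and *Slc44a2* were named after their values were seen. The ratio of *Phospho1* to *Smpd3*, which was planned, could not be had without named features. Software further comprised pandas 2.3.3, scipy 1.17.1, numpy 2.4.6 and matplotlib 3.10.9 under Python 3.11.15.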

Additional observations from a re-analysis of the deposited data

How the results depend on the processing

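No member and no listed pathway gene was called by limma under any of the 18 alternatives. Over all genes, limma called 49 with the replicate block, 8 within the libraries with *Hbb-bt* at or under 1000 FPKM, 1 within those above it, and 0 to 300 with 1 library left out (77 without bone replicate 3 and 300 without osteoblasts replicate 1), against 0 in the fit reported; the cause was not tested. The sources do not say that a number marks 1 mouse. Same-numbered deviations correlated at 0.84, -0.75 and 0.83 across 12112 genes. Bone replicate 3 with osteoblasts replicate 2 gave 0.83, and bone replicate 2 with osteoblasts replicate 1 gave 0.80. All correlations were positive on one side of the *Hbb-bt* limit and negative across it, whatever the number. They therefore cannot show whether libraries share a mouse. The block changed no other call. Its exact sign-flip p cannot go below 0.25.

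The difference of *Slc20a2* turned to -0.039 in TPM, -0.049 with the 75th percentile, -0.12 with the sum over named genes, -0.36 without the 2 libraries with over 50% of FPKM on unnamed features and -0.24 within the libraries with much *Hbb-bt*. That of *Phex* turned to -0.0063 with the 75th percentile, -0.088 with the sum over named genes and -0.15 within the libraries with little *Hbb-bt*. The values of *Alpl* (0.12 within the latter) and of *Enpp1* and *Ank* (0.38 and 0.077 within those with much) also turned. The cause was not tested. With 1 library left out the differences ranged from -0.87 to -0.11 for *Alpl*, -1.03 to 0.12 for *Enpp1*, -0.61 to 0.075 for *Ank*, 0.11 to 0.93 for *Slc20a1*, -0.34 to 0.28 for *Slc20a2* and -0.057 to 0.30 for *Phex*. The log2 ratios ranged from -0.26 to 0.47 (*Alpl* to *Enpp1*) and 0.19 to 0.95 (*Slc20a1* to *Slc20a2*). The median difference of all genes was 0.12 in FPKM, 0.042 with the 75th percentile and -0.032 with the sum over named genes. The settings for the 2 subsets by *Hbb-bt* and for unnamed features were chosen after seeing the data. No value was had for the ratio of *Phospho1* to *Smpd3*. Depth limits *Fgf23*, which lay at 0 to 12.0 implied pairs.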
